A study of Mus musculus with 78 samples.

Results

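The proteasome is built from subunits whose genes are named Psma, Psmb, Psmc and Psmd followed by a number. Of 43629 genes in the count table, 39 carried such a symbol by their Ensembl identifier, and the 38 that reached 1 CPM (counts scaled to a common library size) in at least 3 libraries are described here. The gene left out was Psmb11, the catalytic subunit of the thymus. The 38 were sorted by role into the 7 alpha-ring genes Psma1 to Psma7, their testis counterpart Psma8, the 7 constitutive beta-ring genes Psmb1 to Psmb7, the 3 inducible immunoproteasome genes Psmb8, Psmb9 and Psmb10, the 6 ATPases Psmc1 to Psmc6, 3 non-ATPase base subunits, 8 lid subunits and the 3 base assembly chaperones Psmd5, Psmd9 and Psmd10. All 38 passed the filter on low counts in each of the 5 sets of libraries that were fitted.

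The proteasome degrades proteins that carry ubiquitin chains. Its 20S core is a barrel of stacked alpha and beta rings, with the proteolytic sites on the inner face of Psmb5, Psmb6 and Psmb7, and its 19S regulatory particle binds the ubiquitin chain, removes it and uses ATP to unfold and thread the substrate into the core. Interferon induces Psmb8, Psmb9 and Psmb10, which take the places of the 3 constitutive catalytic subunits in new cores and favour peptides for MHC class I presentation. Transcription of subunit genes is raised by the factor Nfe2l1 when proteasome activity is short.

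Liver RNA of 78 mice, 26 groups of 3, had been sequenced. UM-HET3 mice of both sexes, a genetically mixed stock, were studied at 6 months of age after 2 months of treatment as controls on the Purina 5LG6 diet or on that diet with 1 of 4 agents, 1000 ppm acarbose, 42 ppm rapamycin, 1200 ppm Protandim or 14.4 ppm 17-alpha-estradiol, or with food cut by 40% (calorie restriction). At 12 months, after 8 months of treatment, the same stock was studied as controls, on 1000 ppm acarbose, on 14 ppm rapamycin or with food cut by 40%. The remaining groups were males: C57BL/6J mice of 14 months that had eaten 0.12% methionine for 12 months against 0.86% in controls, growth hormone receptor knockout (GHRKO) mice of 5 months on a (C57BL/6J x BALB/cByJ)/F2 background, and Snell dwarf mice of 5 months on a (PW/J x C3H/HeJ)/F2 background, each with littermate controls. Both dwarf mutations are carried by every cell of the body.

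Each effect below is a log2 fold change ± SE from edgeR's quasi-likelihood fit. With both sexes, the differences from same-sex controls in females and in males were averaged (n = 3 libraries per group). A gene passed where its p, adjusted by Benjamini-Hochberg over all genes of the fit, was under 0.05, and beside each count stands the share of all tested genes that passed. Where a share is followed by a pair of counts, the first is the members at an unadjusted p under 0.05 and the second the members called by DESeq2, an alternative count model. Levels are normalised CPM, scaled by TMM within each set of libraries, and values of 3 libraries stand in the order of their replicate numbers. Overlap between groups is described for single genes, most of them named for a small p in the same libraries. It is therefore not separate support, and the share of all genes without overlap was not counted. The 5 interventions at 6 months share 1 control group per sex, as do the 3 at 12 months, so their effects are given side by side and not as independent results. Most members also rose and fell together across libraries, as described below for 6 months. Counts of members by the sign of the effect are therefore descriptions and not separate observations. The share of all genes with each sign was not counted.

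Libraries held 15521588 to 37778510 assigned counts. In 9 libraries markers of pancreas, adrenal gland, kidney or skeletal muscle summed to more than 500 counts, against at most 279 elsewhere. The 279 were skeletal muscle markers in replicate 1 of GHRKO mice, against 7 in each of the other GHRKO libraries. The marker sums leave out Cela1 of the pancreas list and Star of the adrenal list, whose median count per library was above 20. With Cela1 kept, the pancreas sum passed 500 counts in further libraries, among them all 3 male controls of 12 months (1020 to 1422) and all 3 Snell controls (1181 to 1244). The 9 libraries were replicate 2 of calorie-restricted females and of males at 6 months (skeletal muscle), replicate 3 of acarbose males (pancreas), replicate 2 of rapamycin males (adrenal), replicate 3 of Protandim females (pancreas) and replicate 2 of 17-alpha-estradiol males (kidney) at 6 months, replicate 1 of calorie-restricted females (adrenal) and replicate 3 of rapamycin males (skeletal muscle) at 12 months, and replicate 1 of Snell dwarfs (skeletal muscle). Counts of members called are also given without them. Without them edgeR still called 0 members for acarbose, rapamycin, Protandim and 17-alpha-estradiol at 6 months with both sexes, for rapamycin at 12 months, for the males of these groups that hold such a library, for the sex differences and for the difference in the acarbose effect between ages. The 5 hepatocyte markers summed to at least 50800 CPM in every library.

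RefSeq promoter windows of 250 bases before to 50 after the start (build GRCm38.p6) were found for 31 of the 38 genes and searched on both strands for 3 motifs. The antioxidant response element core TGACNNNGC, bound by Nfe2l1 and Nfe2l2, was present in 5 of the 31 (16.1%: Psmb5, Psmb6, Psmc6, Psmd9 and Psmd12) against 14.0% of 27025 genes with a window. The CCAAT box was present in 12 of 31 (38.7%) against 41.1% of all, and the interferon-stimulated response element core GAAANNGAA in 5 of 31 (16.1%) against 9.8%, with 0 of the 3 immunoproteasome genes among them. No matches of different motifs shared a base. The upstream parts of 5 promoters are printed because their genes set the pattern described below: Psmd14 fell most under short calorie restriction, Psmc6 fell with it, Psmb5 and Psmb6 did not pass, and Psmb10 rose. Bases inside the annotated gene were left off, each sequence runs 5′ to 3′ on the gene's strand, and capitals mark a motif match.
Psmd14 (chr2:61711444-61711693, plus strand, CCAAT box on the opposite strand): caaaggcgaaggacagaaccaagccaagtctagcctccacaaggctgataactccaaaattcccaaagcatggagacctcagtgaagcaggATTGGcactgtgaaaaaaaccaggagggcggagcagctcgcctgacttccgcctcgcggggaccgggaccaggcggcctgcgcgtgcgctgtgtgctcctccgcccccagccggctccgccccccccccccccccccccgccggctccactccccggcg
Psmc6 (chr14:45329574-45329787, plus strand, antioxidant response element core on the opposite strand): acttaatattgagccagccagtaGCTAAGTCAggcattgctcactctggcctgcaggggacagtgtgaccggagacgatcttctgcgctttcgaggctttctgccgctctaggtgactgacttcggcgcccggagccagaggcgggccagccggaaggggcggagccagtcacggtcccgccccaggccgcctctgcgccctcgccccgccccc
Psmb5 (chr14:54618023-54618245, minus strand, antioxidant response element core): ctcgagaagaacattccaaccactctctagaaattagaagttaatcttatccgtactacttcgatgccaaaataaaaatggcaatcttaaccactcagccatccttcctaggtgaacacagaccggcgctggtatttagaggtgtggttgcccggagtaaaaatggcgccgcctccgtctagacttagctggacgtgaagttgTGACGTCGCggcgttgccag
Psmb6 (chr11:70525107-70525356, plus strand, antioxidant response element core): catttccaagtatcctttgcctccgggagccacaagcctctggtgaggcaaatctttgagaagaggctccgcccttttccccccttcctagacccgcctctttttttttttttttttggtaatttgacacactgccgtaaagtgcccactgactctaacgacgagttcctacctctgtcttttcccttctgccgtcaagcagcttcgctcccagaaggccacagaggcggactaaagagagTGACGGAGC
Psmb10 (chr8:105938445-105938642, minus strand, no match): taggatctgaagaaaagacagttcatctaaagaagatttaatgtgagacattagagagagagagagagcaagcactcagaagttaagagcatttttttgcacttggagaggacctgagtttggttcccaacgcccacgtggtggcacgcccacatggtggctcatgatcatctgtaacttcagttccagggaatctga
Of the 5 genes with the element, Psmc6 and Psmd12 fell under short calorie restriction and Psmb5, Psmb6 and Psmd9 did not pass, and no match stood in this window of Psmd14. A match is a run of letters, not a bound site.

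The levels of members differed widely in 6-month controls. Per kilobase of exon, Psma6 of the alpha ring was highest at 91.1 ± 8 CPM (SD, n = 6), followed by the ATPase Psmc1 at 87.4 ± 12 and the beta subunit Psmb4 at 86.2 ± 9.7, and these 3 did not differ beyond their spread. Of the catalytic subunits, Psmb6 stood at 68.7 ± 8.1, Psmb5 at 48.2 ± 12 and Psmb7 at 35.6 ± 2.8 CPM per kilobase. Their inducible counterparts were lower on the same scale, with Psmb9 at 1.55 ± 0.68 replacing Psmb6, Psmb8 at 5.4 ± 0.94 replacing Psmb5 and Psmb10 at 11.1 ± 1.6 replacing Psmb7. In these livers the constitutive core transcripts therefore outnumbered the inducible ones in each of the 3 pairs. The lid deubiquitinase Psmd14 was among the lower particle subunits at 12.3 ± 1.6, and Psma8 was last at 0.448 ± 0.083 CPM per kilobase. The whole gene's exon length was used, so transcripts that use few of the exons are understated.

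Calorie restriction for 2 months was the intervention under which most members passed. At 6 months 25 members fell and 1 rose, 26 of 38 against 26.1% of 14816 genes tested (13.6% lower and 12.5% higher), and the median member stood at -0.36 where the median gene stood at 0.00. Without the libraries with markers of another tissue, 24 fell and 1 rose. In bulk liver, fewer cells of a type and less RNA per cell cannot be told apart. The change was uneven over the complex: 16 of 17 genes of the regulatory particle fell (median -0.55), 7 of 7 alpha-ring genes fell (median -0.28), 2 of 7 constitutive beta-ring genes fell (median -0.14), and 0 of 3 assembly chaperones passed by edgeR (1 at an unadjusted p under 0.05; median -0.14). For those 3 chaperones the log2 fold changes were -0.05 ± 0.08 for Psmd5, -0.14 ± 0.13 for Psmd9 and -0.21 ± 0.10 for Psmd10.

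**Figure D1:**
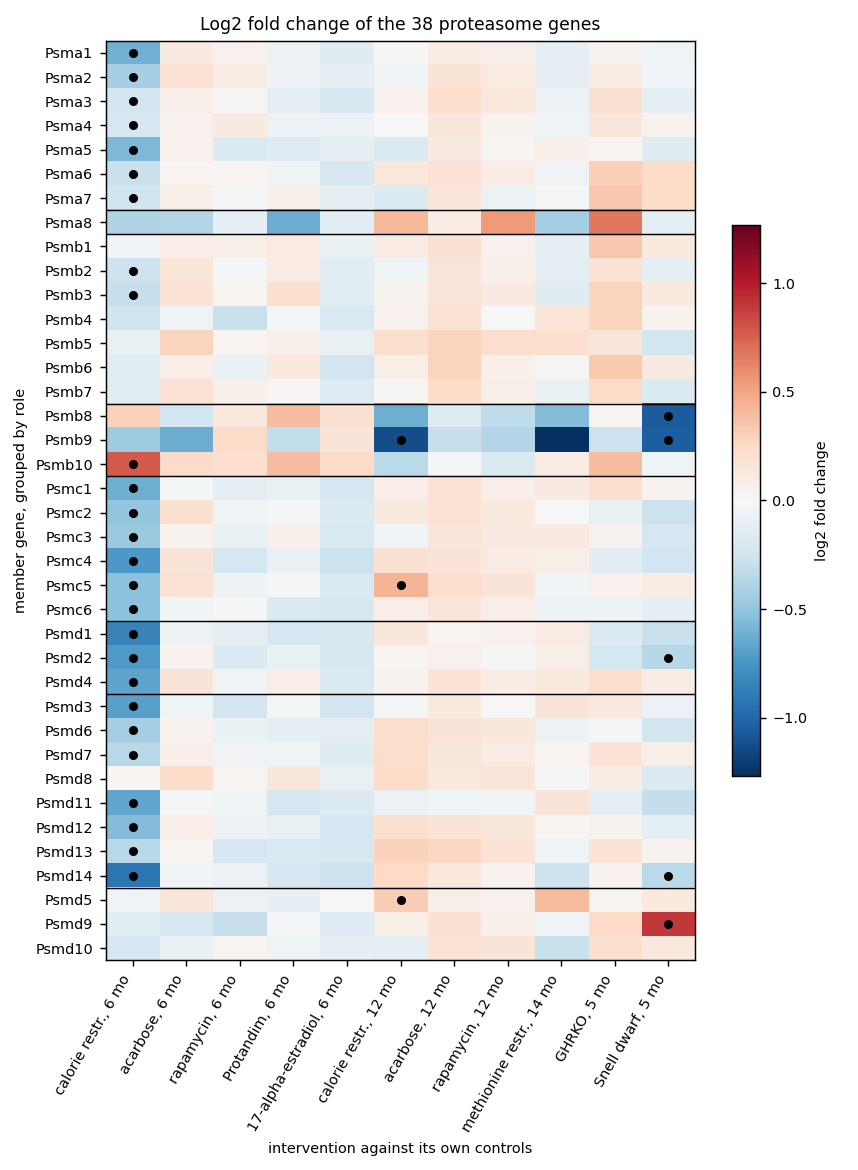
Log2 fold change of the 38 proteasome genes (rows, grouped by role with lines between groups, from the alpha ring at the top to the assembly chaperones at the bottom) in 11 comparisons of an intervention with its controls (columns). Colour gives the log2 fold change, blue lower and red higher, and a black dot marks an adjusted p under 0.05; 26 dots fall in the first column, calorie restriction at 6 months.

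In the lid, Psmd14 (ENSMUSG00000026914, GRCm38 chromosome 2, 61711694 to 61800376, plus strand), which cuts the ubiquitin chain from the substrate, gave 38, 31.3 and 42.1 CPM in control females and 15.3, 16.3 and 19.4 in calorie-restricted females. In males it gave 32.5, 32.2 and 31.3 in controls and 16.4, 19.8 and 21.5 under restriction. No restricted library reached its lowest control in either sex, and the log2 fold change was -0.93 ± 0.09 (adjusted p = 4.13e-08). Of the other lid genes, Psmd11, Psmd3, Psmd12, Psmd6, Psmd7 and Psmd13 fell by between 0.35 and 0.69 on the log2 scale. Psmd8 was the exception in the lid at 0.02 ± 0.08 (adjusted p = 0.877).

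In the base, the scaffold Psmd1 (chromosome 1, 86064387 to 86139151, plus strand), which holds ubiquitin receptors, gave 129, 108 and 131 CPM in control females and 59.4, 60.2 and 61.0 in restricted females. Control males stood at 103, 111 and 101, and restricted males at 62.7, 62.3 and 73.0. The groups did not overlap in either sex, and the log2 fold change was -0.85 ± 0.07 (adjusted p = 8.84e-10). The second scaffold Psmd2 fell by 0.72 ± 0.07 and the ubiquitin receptor Psmd4 fell by 0.67 ± 0.11 on the log2 scale.

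All 6 ATPases, the ring that unfolds substrates, fell (median -0.52). Psmc1 gave 195, 167 and 193 CPM in control females against 101, 96.9 and 107 under restriction, and 145, 173 and 141 in control males against 104, 121 and 130. Psmc4 gave 108, 87.3 and 107 against 53.4, 51.8 and 58.9 in females, and 87.5, 97.8 and 90.6 against 48.3, 69.8 and 67.1 in males. Every restricted library lay below every control of its sex for both genes, with log2 fold changes of -0.62 ± 0.08 (adjusted p = 1.21e-06) and -0.73 ± 0.10 (adjusted p = 4e-06). The others, Psmc2, Psmc3, Psmc5 and Psmc6, lay between -0.52 and -0.47.

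Of the alpha ring, whose subunits gate the entry to the core, Psma1 and Psma5 had the smallest adjusted p. Psma1 gave 64.9, 62.0 and 75.3 CPM in control females against 40.1, 40.6 and 43.2 under restriction, and 57.7, 62.1 and 64.7 in control males against 37.6, 44.9 and 46.0. For Psma5 the values were 60.9, 52.8 and 67.6 against 41.0, 37.4 and 37.3 in females and 58.6, 64.4 and 55.8 against 36, 42.7 and 49.0 in males. Neither gene's groups overlapped in either sex, and the log2 fold changes were -0.61 ± 0.08 (adjusted p = 1.39e-06) and -0.57 ± 0.08 (adjusted p = 1.22e-05). Psma2, Psma6, Psma7, Psma3 and Psma4 fell by between 0.21 and 0.42. Of 18 alternatives, the call of Psma4 was lost under 7 and that of Psma7 under 8. For both, the fit of only the restricted and control groups was among them. The call of Psma3 was lost under 1.

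In the constitutive beta ring 2 of 7 genes fell. Psmb2 gave 53.6, 52.5 and 62.5 CPM in control females against 37.8, 42.3 and 43.6 under restriction, while in males 47.2, 52.2 and 47.4 overlapped with 39.7, 50.6 and 48.1. The log2 fold change was -0.26 ± 0.08 (adjusted p = 0.0144). Psmb3, at 80.3, 73.6 and 90.4 against 61.7, 61.0 and 60.5 in females and 68.4, 83.1 and 73.1 against 54.9, 73.9 and 72.9 in males, also overlapped in males (-0.29 ± 0.10, adjusted p = 0.0378). Its call was lost under 10 of 18 alternatives, the fit without the libraries with markers of another tissue among them. The catalytic subunits were not among those that passed: Psmb5 (the chymotrypsin-like site) stood at -0.09 ± 0.18, Psmb6 (the caspase-like site) at -0.14 ± 0.13 and Psmb7 (the trypsin-like site) at -0.13 ± 0.07. Their libraries overlapped in both sexes, as for Psmb6 with 138, 113 and 147 CPM in control and 119, 118 and 105 in restricted females, and 121, 140 and 112 against 96.6, 128 and 134 in males. Psmb5 gave 38.5, 35.2 and 62.1 against 28.9, 38.4 and 42.0 in females and 48.4, 40.1 and 35.7 against 38.1, 54.5 and 42.8 in males, and Psmb7 gave 120, 105 and 132 against 95.6, 102 and 105 and 119, 128 and 126 against 110, 130 and 127. The structural subunits Psmb4 (-0.25 ± 0.10, adjusted p = 0.0582) and Psmb1 (-0.03 ± 0.08) did not pass, nor did the testis alpha subunit Psma8 (-0.38 ± 0.35).

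One immunoproteasome gene moved against the rest. Psmb10 (chromosome 8, 105935735 to 105938444, minus strand) gave 14.1, 18.2 and 21.4 CPM in control females and 28.8, 34.3 and 30.7 under restriction. In males, 21.0, 17.8 and 20.9 stood against 26.6, 37.3 and 36.4. All 6 restricted libraries lay above all controls of their sex, and Psmb10 rose by 0.78 ± 0.11 (adjusted p = 8.64e-06; 0.69 without the libraries with markers of another tissue). Psmb8 stood at 0.29 ± 0.17 (14.5, 22 and 20.7 CPM against 20.3, 27.6 and 21.2 in females, 19.8, 14.6 and 18.1 against 15.6, 28.1 and 21.3 in males) and Psmb9 at -0.45 ± 0.46 (3.90, 3.01 and 7.53 against 1.76, 6.48 and 2.83, and 6.63, 3.64 and 9.22 against 1.68, 7.35 and 4.52), with overlapping groups. The 4 leukocyte markers (Ptprc, Coro1a, Lcp1 and Laptm5) summed to 86.0 to 92.6 CPM in control and 66.6 to 75 in restricted females, and to 96.1 to 116 against 80.1 to 83.7 in males. Of the 4 only Lcp1 passed (-0.49 ± 0.07), and the others stood at 0.15 ± 0.23 (Ptprc), 0.07 ± 0.20 (Coro1a) and -0.03 ± 0.15 (Laptm5), so the lower sums rest on Lcp1. Their part in the immunoproteasome values was not tested.

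The fall was seen in each sex. In females 26 members fell and 1 rose (17.0% of all genes passed, 9.29% lower and 7.73% higher; median member -0.49), and in males 11 fell and 1 rose (7.84%, 4.18% lower and 3.66% higher; median member -0.21). Without the libraries with markers of another tissue 23 fell in females and 7 in males, and without restricted male replicate 1 the members called in males numbered 6. In males the 2 alpha-ring genes Psma1 and Psma5 and 9 of 17 particle genes passed, and 0 of 7 constitutive beta-ring genes did by edgeR (0 at an unadjusted p under 0.05). Psmd1 stood at -1.03 ± 0.09 in females and -0.67 ± 0.09 in males, Psmd14 at -1.13 ± 0.13 and -0.73 ± 0.13, and Psmb10 at 0.81 ± 0.16 and 0.75 ± 0.16. For 36 of 38 members the male effect lay above the female one, yet edgeR's test of the difference called 0 of 38 (0.00675% of all genes; 14 at an unadjusted p under 0.05 and 0 by DESeq2). The smallest p belonged to Psmc1, with a difference of 0.50 ± 0.15 (adjusted p = 0.36), Psmd6 and Psmd1. The median difference was 0.32 for members and 0.00 for all genes. The male effect was also higher for 33 members under acarbose, 34 under rapamycin, 27 under Protandim and 35 under 17-alpha-estradiol at 6 months. These contrasts share 1 control group per sex, in which 33 of 38 members were lower in males.

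Genes that work with the proteasome were counted over whole lists. Of 8 further particle subunits and bound factors, 5 fell and 1 rose: Usp14, the deubiquitinase of the particle, at -0.56, the ubiquitin receptor Adrm1 at -0.43, Txnl1 at -0.33, the ligase Ube3c at -0.29 and Ecpas at -0.25, against the small lid protein Sem1 at 0.31. Of 14 ubiquitin and shuttle genes 7 fell and 1 rose, with the unfoldase Vcp at -0.68, its cofactors Nploc4 at -0.53 and Ufd1 at -0.43, and the shuttle Rad23b at -0.56. Of 19 genes of endoplasmic reticulum degradation 8 fell and 0 rose, among them the ligase Syvn1 at -1.40 and its partner Sel1l at -0.80. Alternative caps of the core split: Psme3 (-0.37), Psme4 (-0.42) and the inhibitor Psmf1 (-0.32) fell, while the interferon-inducible cap Psme2 rose (0.41). Of 5 core assembly factors 1 passed, Psmg3, which rose by 0.26 (2 at an unadjusted p under 0.05). Of a list of 5 regulators, Nfe2l1 rose by 0.28 and Akirin2 by 0.45, and Nfe2l2, Ddi2 and Ngly1 did not pass. The share of all genes passing, 26.1%, stands beside all these counts. For contrast, 57 of 81 cytosolic ribosomal protein genes rose and 1 fell (median 0.35) in the same fit.

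After 8 months of calorie restriction, at 12 months of age, the members stood close to their controls. At that age 1 member fell and 2 rose, 3 of 38 against 13.8% of 13639 genes tested (7.05% lower and 6.74% higher; median member 0.06, median gene -0.01; 3 members without the libraries with markers of another tissue). Psmc5, an ATPase, gave 64.1, 79.3 and 62.0 CPM in control females against 77.3, 104 and 120, and 72.0, 87.0 and 81.3 in control males against 99.8, 116 and 80.4. Psmd5, a chaperone of base assembly, gave 26.1, 31.3 and 33.4 against 40.0, 37.6 and 39.9, and 37.4, 36.4 and 31.8 against 41.1, 42.7 and 41.0. Psmd5 did not overlap with controls in either sex, whereas Psmc5 overlapped in both, and they rose by 0.31 ± 0.09 (adjusted p = 0.0244) and 0.43 ± 0.13 (adjusted p = 0.0272). At 12 months Psmd5 did not pass without the libraries with markers of another tissue (0.30, adjusted p = 0.0525), and the adjusted p of Psmc5 reached 0.0886 among its alternatives. In each sex alone edgeR called 0 members, against 4.72% of all genes in females (4 at an unadjusted p under 0.05, 3 by DESeq2, 1 by edgeR without the library with adrenal markers) and 3.09% in males (1 and 0), and 0 for the male minus female effect (0% of all genes, 0 at an unadjusted p under 0.05, 0 by DESeq2).

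Psmb9 (chromosome 17, 34181987 to 34187764, minus strand), the inducible counterpart of Psmb6, was the member that fell at 12 months. It gave 21.9, 35.8 and 14.3 CPM in control females against 5.46, 8.93 and 15.6 under restriction, and 13.8, 19.2 and 15.4 in control males against 7.04, 8.04 and 9.30. The male groups did not overlap, and in females 1 restricted library lay above the lowest control. Psmb9 fell by 1.13 ± 0.28 (adjusted p = 0.0096; -0.98 and 0.0304 without the libraries with markers of another tissue). Psmb8 stood at -0.62 ± 0.26 and Psmb10 at -0.34 ± 0.25. The gene next to Psmb9, the peptide transporter subunit Tap1, fell by 0.87 and shares 212 exon bases with it on the opposite strand, and 7 of 19 class I and interferon genes fell and 0 rose, Isg15, Ifit1, Ifit3 and Irf7 among them. The leukocyte markers summed to 114 to 152 CPM in control and 64.7 to 78.9 in restricted females and to 104 to 139 against 79.1 to 95.7 in males, and T cell markers to at most 7.03 in any library. Of the 4, Lcp1 passed (-0.65 ± 0.11), and Coro1a (-0.64 ± 0.28), Laptm5 (-0.44 ± 0.20) and Ptprc (-0.28 ± 0.29) did not. Of 4 B cell markers Ms4a1 fell (-1.59 ± 0.46). The part of leukocytes in the lower Psmb9 was not tested.

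The effect of calorie restriction differed between the ages for 21 members by the test of the difference itself, against 12.8% of 15159 genes tested (6.82% higher and 5.96% lower at 12 months). It was higher at 12 months for 19 and lower for 2, and 18 and 1 without the libraries with markers of another tissue. Age and length of restriction changed together and cannot be told apart. The difference followed the parts of the complex: 16 of 17 particle genes passed (median 0.67), 2 of 7 alpha-ring genes and 0 of 7 constitutive beta-ring genes by edgeR (0 at an unadjusted p under 0.05). Psmd14 gave 34.6, 42.7 and 42.5 CPM in control and 39.5, 54.7 and 54.9 in restricted females of 12 months, and 44.8, 57.2 and 44.1 against 54.1, 64.7 and 46.2 in males, so the groups overlapped where at 6 months they did not. Its effects of -0.93 ± 0.09 and 0.25 ± 0.13 differed by 1.17 ± 0.15 (adjusted p = 1.02e-06). Of the alpha ring, Psma1 (0.62 ± 0.13) and Psma6 (0.41 ± 0.12) passed.

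**Figure D2:**
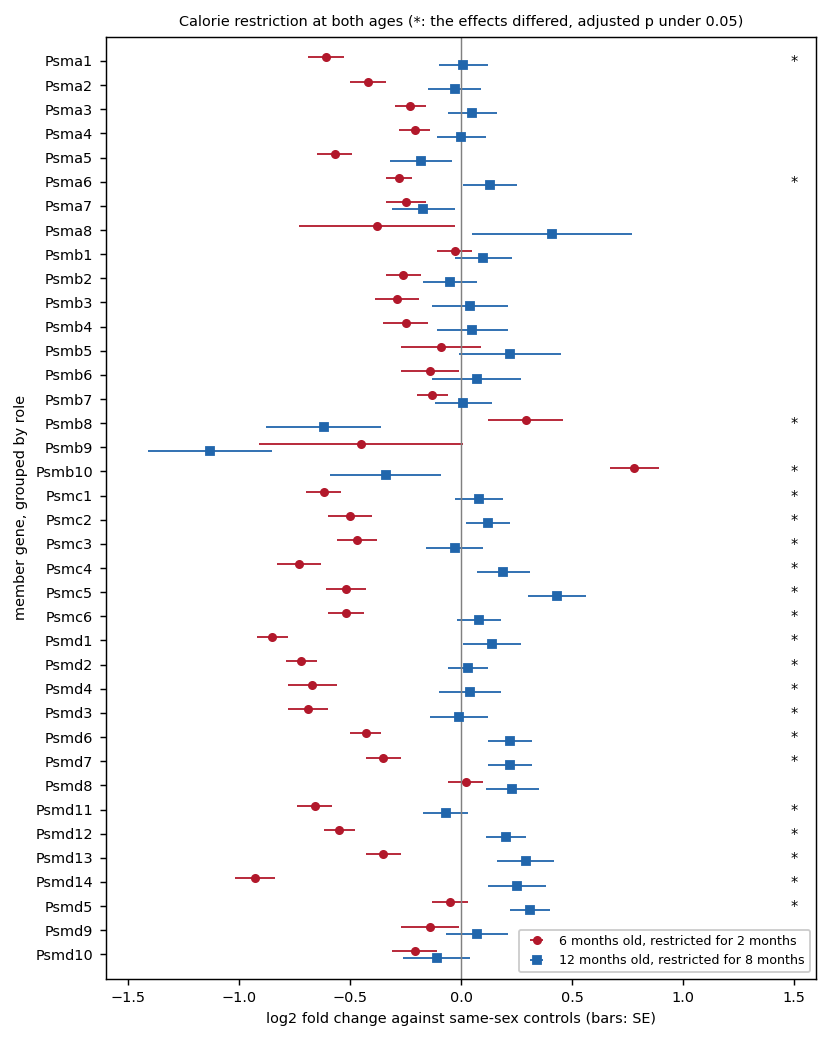
Log2 fold change ± SE of each member (rows, grouped by role) under calorie restriction at 6 months (red circles) and 12 months (blue squares) against same-sex controls, with an asterisk where the effects differed at an adjusted p under 0.05. The 6-month points of the regulatory particle lie left of 0 except Psmd8, the 12-month points lie between -0.07 and 0.43, and Psmb10 and Psmb8 change sides the other way.

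Of the immunoproteasome genes, Psmb10 and Psmb8 went the other way between the ages, and Psmb9 did not pass for the difference. The effect on Psmb10 went from 0.78 ± 0.11 to -0.34 ± 0.25, a difference of -1.13 ± 0.26 (adjusted p = 0.00227; -0.91 and 0.0301 without the libraries with markers of another tissue), and that on Psmb8 from 0.29 ± 0.17 to -0.62 ± 0.26, a difference of -0.92 ± 0.31 (adjusted p = 0.0376). Psmb8 did not pass without the libraries with markers of another tissue (-0.58, adjusted p = 0.261), and its call was lost under 16 of 29 alternatives. In female controls of 12 months Psmb10 itself was spread widely, at 48.0, 69.0 and 30.7 CPM, and restricted females gave 19.6, 27.8 and 54.5. Of the partner lists, 6 of 14 ubiquitin and shuttle genes, 8 of 19 endoplasmic reticulum degradation genes and 4 of 8 further particle genes had a higher effect at 12 months and 0 of each a lower one. Vcp (0.60 ± 0.12), Usp14 (0.66 ± 0.13) and Ubxn4 (1.28 ± 0.16) were examples.

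The balance of particle and core transcripts was compared within each library, where the library scaling cancels. The sums were not divided by transcript length, so the ratio is not a stoichiometry and only its difference between groups is read. The summed CPM of the 17 particle genes over that of the 14 constitutive core genes was 1.42 ± 0.05 (SD, n = 3) in control females and 1.40 ± 0.01 in control males of 6 months, and 1.12 ± 0.02 and 1.14 ± 0.03 under calorie restriction. The restricted libraries (1.10 to 1.16) all lay below the controls (1.37 to 1.47), and the 2 of them with muscle markers gave 1.11 and 1.10. At 12 months the controls were themselves lower, at 1.11 ± 0.08 and 1.21 ± 0.07, and restricted mice gave 1.28 ± 0.15 and 1.23 ± 0.10, with overlap. Among the other groups of 6 months, only Protandim females (1.24 to 1.31), rapamycin females and males (1.31 to 1.38 and 1.30 to 1.37) and 17-alpha-estradiol females (1.30 to 1.40) had a mean below 1.35. GHRKO mice gave 1.07 ± 0.05 against 1.24 ± 0.03 in their controls without overlap, and Snell dwarfs 1.15 ± 0.06 against 1.29 ± 0.08. GHRKO replicate 1, with 279 counts of muscle markers, gave 1.02, and the other 2 gave 1.10 and 1.09. The Snell dwarf library with muscle markers, at 1.20, overlapped with the lowest Snell control at 1.19, and the other 2 gave 1.09 and 1.16. Of restricted females of 12 months, the library with adrenal markers was the highest at 1.39, and the other 2 gave 1.33 and 1.11. These ratios rest on sums over the members and carry no test.

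**Figure D3:**
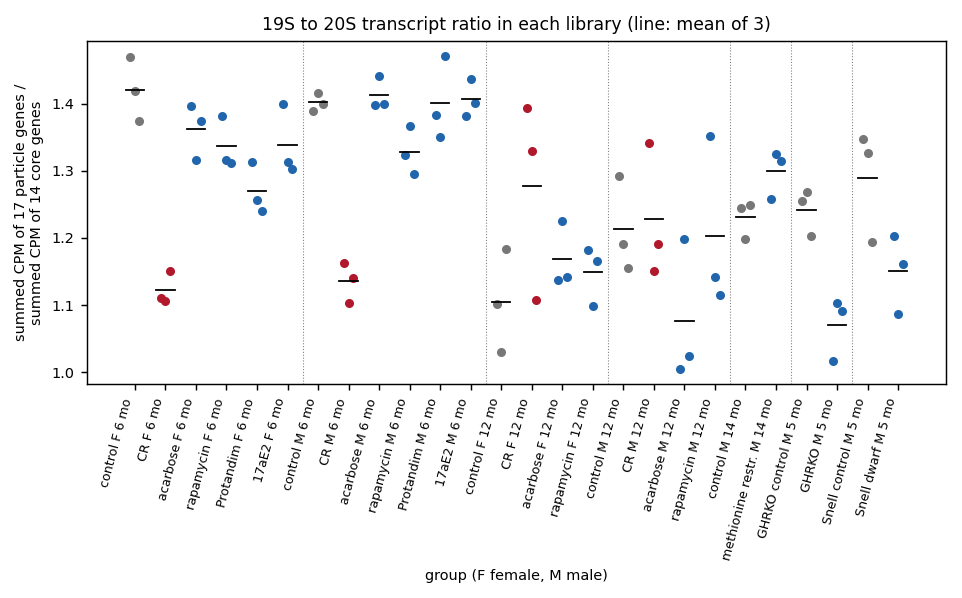
Summed CPM of 17 regulatory particle genes divided by that of 14 constitutive core genes, 1 point per library in each of the 26 groups, with a line at the mean of 3 and dotted lines between sets of libraries that share controls (grey controls, red calorie restriction, blue other interventions). Both calorie-restricted groups of 6 months lie between 1.10 and 1.16, below all 6 controls of that age.

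Exchange of catalytic subunits was also compared as the log2 ratio of each inducible gene to its constitutive partner, with 33 two-sided exact permutation tests adjusted together, of which 0 passed; 7 had an unadjusted p under 0.05. At 6 months Psmb10 over Psmb7 was -1.79 ± 0.15 (SD, n = 6) under calorie restriction and -2.70 ± 0.23 in controls, exact p = 0.005, the smallest that 400 arrangements allow, and adjusted p = 0.0825 (difference 0.91; 0.86 and adjusted p = 0.165 without the libraries with markers of another tissue). At 12 months Psmb9 over Psmb6 was -3.59 ± 0.25 under restriction and -2.43 ± 0.42 in controls, with the same exact p = 0.005 and adjusted p = 0.0825 (difference -1.16; -1.15 without those libraries). Neither pair overlapped between restricted and control libraries. In the male sets of 3 against 3 no exact test can go below 0.1. With both sexes, a p of 0.005 passes the adjustment over 33 tests only where several other tests are also very small. The count of 0 passing therefore does not show that these ratios were unchanged.

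Acarbose, which slows the digestion of starch, left members near their controls at 6 months. By edgeR 0 of 38 passed against 6.16% of all genes (5 at an unadjusted p under 0.05, 0 by DESeq2; median member 0.05), and effects spanned -0.63 to 0.28. The smallest p belonged to the lid gene Psmd8 (0.23, adjusted p = 0.11), Psmb7 (0.18, 0.12) and Psma2 (0.18, 0.186). In females 0 passed against 10.6% of all genes (4 at an unadjusted p under 0.05, 2 by DESeq2), with Psmb10 at 0.46 ± 0.16 (adjusted p = 0.054) closest, and in males 0 passed against 0% of all genes (8 and 0). Females had 25 of 38 members below 0 and males 35 of 38 above, but the test of the difference called 0 (0.378% of all genes, 10 at an unadjusted p under 0.05, 0 by DESeq2). The same control groups enter the sex differences of the other interventions at 6 months. At 12 months 0 passed against 0.0587% (0 at an unadjusted p under 0.05, 0 by DESeq2), and 34 of 38 effects lay above 0 (median 0.15). Psmd13 (0.26, adjusted p = 0.586), Psma3 (0.21) and Psmd12 (0.17) had the smallest p there, and 0 passed in females (0%; 3 and 0), in males (0.0220%; 1 and 0) or for the sex difference (0.00733%; 2 and 0). The acarbose effect did not differ between the ages for any member by edgeR (0 against 1.06% of all genes, 0 at an unadjusted p under 0.05, 0 by DESeq2).

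Rapamycin, an inhibitor of the growth kinase mTOR, gave 0 passing members at 42 ppm for 2 months by edgeR against 0.412% of all genes (7 at an unadjusted p under 0.05, 0 by DESeq2; median -0.04). The core subunit Psmb4 (-0.28, adjusted p = 0.173) and the lid genes Psmd3 (-0.24, 0.191) and Psmd13 (-0.21, 0.217) came closest. Of 17 particle genes 16 had an effect below 0. None passed in females (0 against 0.0742%; 8 and 0), in males (0 against 0%; 0 and 0) or for the sex difference (0 against 0%; 0 and 0). At 14 ppm for 8 months 0 passed against 0% of all genes (0 and 0; median 0.07), with Psma8 (0.54, adjusted p = 0.975), Psmd12 (0.14) and Psmd6 (0.14) at the smallest p, and the counts were 0 in females (0.0147%; 3 and 0), males (0.00733%; 0 and 0) and the sex difference (0%; 0 and 0). Doses differed between the ages, so they were not contrasted.

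Protandim, a mixture of plant extracts sold as an Nfe2l2 activator, gave 0 passing members with both sexes by edgeR against 1.38% of all genes (7 at an unadjusted p under 0.05, 2 by DESeq2). Psmb10 (0.39, adjusted p = 0.0668), Psmd1 (-0.22, 0.0741) and Psmd11 (-0.21, 0.17) had the smallest p. In females alone 3 particle genes fell and Psmb10 rose, 4 of 38 against 5.35% of all genes (2.60% lower and 2.75% higher). Psmb10 gave 27.2, 30.0 and 24.8 CPM against 14.1, 18.2 and 21.4 in controls without overlap (0.62 ± 0.16, adjusted p = 0.0253). The ATPase Psmc6 gave 59.4, 49.9 and 42.4 against 65.1, 61.6 and 73.4 (-0.40 ± 0.11, adjusted p = 0.036), and the lid gene Psmd11 gave 100, 99.2 and 90.9 against 124, 120 and 136 (-0.39 ± 0.12, adjusted p = 0.0482), both without overlap. For Psmd1, 112, 93.6 and 83.1 overlapped with 129, 108 and 131 (-0.35 ± 0.09, adjusted p = 0.0288). Without the 6 libraries of 6 months with markers of another tissue, 0 of the 4 passed, and Psmb10 stood at 0.65 (adjusted p = 0.13). Without replicate 3 alone, the Protandim library with pancreas markers, 0 passed as well. Calls were also 0 without Protandim replicate 2, control replicate 1 or control replicate 2, and 1 without control replicate 3. Males gave 0 (0.0135% of all genes; 1 and 0), and the sex difference 0 (0%; 4 and 0). Of the 5 genes with an antioxidant response element core, only Psmc6 was among the 4.

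17-alpha-estradiol, an isomer of the hormone 17-beta-estradiol, was tested at 14.4 ppm. With both sexes edgeR called 0 against 0.385% of all genes (16 at an unadjusted p under 0.05, 0 by DESeq2), led by Psmd1 (-0.20, adjusted p = 0.124), Psma6 (-0.20, 0.131) and Psmd12 (-0.22, 0.147). As a description, 35 of 38 effects lay below 0 (median -0.16). In females 7 members fell and 0 rose against 2.87% of all genes (1.39% lower): the alpha subunits Psma3 and Psma6, the ATPase Psmc1 and the particle genes Psmd1, Psmd11, Psmd12 and Psmd14. Psmd1 gave 101, 92.5 and 89.0 CPM against 129, 108 and 131 in controls (-0.38 ± 0.09, adjusted p = 0.0267) and Psmd14 gave 27.2, 26.8 and 26.9 against 38, 31.3 and 42.1 (-0.46 ± 0.13, adjusted p = 0.0454). Psma3 gave 81.6, 76.1 and 78.2 against 99.0, 95.4 and 113 (-0.38 ± 0.10, adjusted p = 0.033), and Psmc1 138, 143 and 130 against 195, 167 and 193 (-0.43 ± 0.11, adjusted p = 0.0303). Psma6, at 92.8, 94.3 and 94.4 against 115, 108 and 129, stood at -0.33 ± 0.09 (adjusted p = 0.0493). The lid genes Psmd11 (99.8, 80.7 and 96.5 against 124, 120 and 136) and Psmd12 (72.9, 64.4 and 67.3 against 93.2, 79.2 and 95.0) stood at -0.46 ± 0.12 (adjusted p = 0.033) and -0.39 ± 0.10 (adjusted p = 0.0396). None of these 7 genes overlapped with controls, but they were named for a small p in the same libraries, so this is not separate support. All 7 calls were lost without the filter on low counts, where more genes are tested (adjusted p from 0.0652 for Psmd1, Psmd11 and Psmc1), and 0 passed without control replicate 1, control replicate 3, 17-alpha-estradiol replicate 2 or 17-alpha-estradiol replicate 3 and 1 without 17-alpha-estradiol replicate 1. In males edgeR called 0 (0.0607% of all genes; 0 and 0), and the sex difference 0 (0.0540%; 8 and 0), so a difference between the sexes was not shown.

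Control mice of both sexes did not differ in members by edgeR, at 6 months (0 against 4.98% of all genes, 4 at an unadjusted p under 0.05, 0 by DESeq2) or at 12 months (0 against 2.88%; 2 and 0). The smallest p belonged to Psmc6 (-0.29, adjusted p = 0.142), Psmc1 and Psmd1 at 6 months and to Psmc4 (0.50, adjusted p = 0.149) at 12 months, as male minus female.

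Methionine restriction for 12 months gave 0 passing members by edgeR against 3.80% of all genes (4 at an unadjusted p under 0.05, 3 by DESeq2; median -0.03). The 2 genes closest were again immunoproteasome subunits. Psmb9 gave 9.61, 8.16 and 10.9 CPM against 13.6, 28.4 and 27.0 in controls (-1.27 ± 0.28, adjusted p = 0.0529), and Psmb8 gave 22.3, 17.8 and 22.2 against 28.5, 33.4 and 29.5 (-0.55 ± 0.13, adjusted p = 0.0526). Neither overlapped with controls. Psmd5, the chaperone, gave 37.9, 35.9 and 33.4 against 27.6, 26 and 27.5 (0.40 ± 0.10, adjusted p = 0.0599), and Psmb10 stood at 0.10 ± 0.11. Of the class I and interferon genes, Tap1 (-0.77) and Gbp3 (-1.12) fell. The leukocyte markers summed to 153 to 215 CPM under methionine restriction and 124 to 143 in controls. The separation of these sums rests on Lcp1 (0.44 ± 0.10, adjusted p = 0.0522), the only 1 of the 4 above the control mean in all 3 libraries. Ptprc (0.47 ± 0.47), Laptm5 (0.36 ± 0.32) and Coro1a (0.20 ± 0.24) each had 2 of 3 libraries below it. The B cell marker Cd79b rose (1.21 ± 0.25). Their part in the lower Psmb8 and Psmb9 was not tested.

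GHRKO mice, which cannot respond to growth hormone, gave 0 passing members by edgeR against 14.8% of 12571 genes tested (5 at an unadjusted p under 0.05, 0 by DESeq2; median 0.13). Psmb10 (0.40 ± 0.13, adjusted p = 0.0734), Psmb1 (0.34 ± 0.13, 0.112) and Psma6 (0.30 ± 0.12, 0.114) had the smallest p. Psmb10 gave 45.6, 37.3 and 41.0 CPM against 27.7, 30.7 and 35.6 without overlap. All 14 core effects lay above 0 (median 0.21) and those of the particle were split, 10 above and 7 below (median 0.04).

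Snell dwarf mice, which lack growth hormone, thyrotropin and prolactin, had changes in both directions: 4 fell and 1 rose, 5 of 38 against 20.1% of 12528 genes tested (10.8% lower and 9.34% higher; median member -0.08). Psmb8 (chromosome 17, 34197721 to 34201454, plus strand) gave 12.3, 6.85 and 6.26 CPM against 20.9, 17.0 and 15.0 in controls, and Psmb9 gave 9.45, 5.39 and 4.79 against 15.3, 13.7 and 11.7. Neither overlapped with controls, and they fell by 1.06 ± 0.27 (adjusted p = 0.0284) and 1.05 ± 0.26 (adjusted p = 0.0235). Without replicate 1, the library with muscle markers and the highest of the 3 for both genes, they stood at -1.43 (adjusted p = 0.00205) and -1.41 (0.00206). The third inducible subunit, Psmb10, gave 26.6, 26.5 and 23.5 against 26.1, 24.7 and 28.2 (-0.05 ± 0.11). The constitutive catalytic subunits stood at -0.23 ± 0.12 (Psmb5), 0.11 ± 0.13 (Psmb6) and -0.18 ± 0.11 (Psmb7). Of 19 class I and interferon genes 6 fell and 1 rose, with Tap1 at -0.86, Tap2 at -0.42 and Gbp2 at 1.59. The leukocyte markers summed to 62.1 to 93.0 CPM in dwarfs and 129 to 149 in controls, which rests on Lcp1 (-1.12 ± 0.19). The other 3 lay above 0 without passing, with Coro1a at 0.63 ± 0.21 and above the control mean in 3 of 3 libraries, Ptprc at 0.29 ± 0.38 and Laptm5 at 0.12 ± 0.20, and the B cell marker Cd79b rose by 1.38 ± 0.38. Their part in the fall of Psmb8 and Psmb9 was not tested.

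In the particle of Snell dwarfs the scaffold Psmd2 gave 166, 166 and 166 CPM against 223, 211 and 205 (-0.36 ± 0.10, adjusted p = 0.038), and Psmd14 gave 41.8, 46.4 and 42.1 against 57.4, 53.8 and 53.2 (-0.34 ± 0.10, adjusted p = 0.0457). Psmd9, the chaperone that holds Psmc6 and Psmc3 during base assembly, rose by 0.90 ± 0.18 (adjusted p = 0.0112; 0.89 and 0.0294 without replicate 1), from 27.2, 25.4 and 37.8 to 56.8, 64.9 and 46.4. No gene of these 3 overlapped with controls, but they were named for a small p in the same libraries, so this is not separate support. Psmd9 shares 1849 exon bases with Gm26745 on the opposite strand, and the strand of counting is not given in the sources used here. The 2 genes' totals over all libraries were 84506 and 311 counts. The part of the overlap in the Psmd9 values was not tested. Psmd2 and Psmd14 lost their calls without replicate 1 (adjusted p = 0.0566 and 0.0886), and 0 of the 5 passed without control replicate 1 or control replicate 2.

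**Figure D4:**
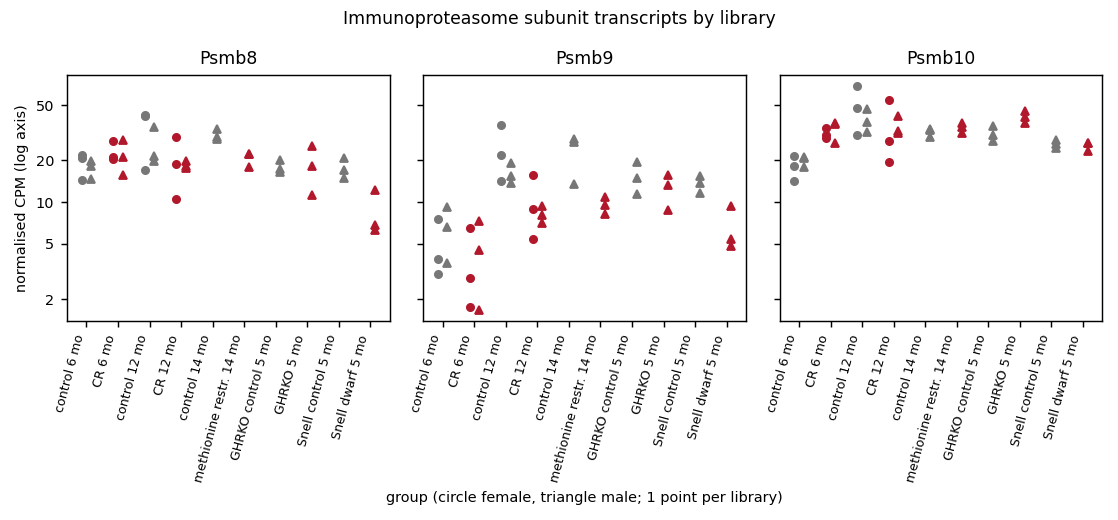
Normalised CPM (log axis) of the immunoproteasome genes Psmb8, Psmb9 and Psmb10 in each library of the controls (grey) and of calorie-restricted, methionine-restricted, GHRKO and Snell dwarf mice (red), circles for females and triangles for males. Psmb9 in restricted males of 12 months (7.04 to 9.30) and in Snell dwarfs (4.79 to 9.45) lies below its controls, and Psmb10 under calorie restriction at 6 months lies above.

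The inducible genes were higher in 12-month than in 6-month controls, with the 3 genes summing to 62.0 to 147 CPM against 32.4 to 49.6. Levels were scaled within each set, and this difference was not tested. Control males of the other sets gave 55.45 to 72.06 (GHRKO) and 54.9 to 62.29 (Snell) at 5 months and 71.39 to 94.94 at 14 months. Age and set of libraries therefore cannot be told apart here. Psmb9 stood at 3.01 to 9.22 CPM in 6-month controls and at 13.8 to 35.8 in those of 12 months.

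Across the 36 libraries of 6 months the members moved as a body with exceptions. Each member's log2 CPM was correlated with the mean of the others, as a description in which libraries share groups and depth. Psmc3 followed the rest most closely (r = 0.939, n = 36), and Psmd6, Psmd4, Psmc4, Psmc1, Psmd12, Psmc5 and Psmd7 lay above 0.91. The constitutive catalytic subunits were looser, with Psmb7 at 0.743, Psmb6 at 0.581 and Psmb5 at 0.512. Psmb10 ran against the rest (r = -0.415), and Psmb8 (-0.139), Psmb9 (0.109) and Psma8 (0.00825) did not follow it. Among the other genes that followed the mean of the members most closely were Nsfl1c (r = 0.925), BC004004, Ran, Vcp, Abcf3, Nmt1, Ufd1, Gps1 and Ubxn1 (r = 0.873). Nsfl1c, Ufd1 and Ubxn1 encode cofactors of Vcp, the unfoldase that hands substrates to the proteasome, and under calorie restriction at 6 months these stood at -0.63 ± 0.09, -0.43 ± 0.06 and -0.63 ± 0.13.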

How the data were processed

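Gene counts per library were deposited by the authors as 1 table. Per the submitters' processing notes the tools were bcl2fastq 1.8.4, Trimmomatic 0.32, STAR 2.5.2b and featureCounts 1.5 with the GRCm38 (mm10) build. The strand setting of the counting is not given in the sources used here. Each library came from a separate mouse, per the design text.

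The deposited counts were fitted in R 4.3.3 with edgeR 4.0.16 (TMM scaling, filterByExpr, quasi-likelihood test of each contrast, Benjamini-Hochberg adjustment at 0.05 over all genes tested), with DESeq2 1.42.0 as an alternative. The 5 sets (6 months, 12 months, methionine restriction, GHRKO, Snell dwarf) were fitted apart, and both ages jointly for the difference between them. Scripts were tested on simulated data. Library totals of 15521588 to 37778510 set the counting precision. Log2 CPM for ratios used a prior count of 2. Values by library are given for Psmb5 to Psmb10 and for up to 2 members per role with the smallest adjusted p where 5 or more passed. In other comparisons the members that passed are named, or the 3 with the smallest p. Alternatives were RLE scaling, a replicate block, no low-count filter, DESeq2, only the compared groups in the fit, and each library left out. Leaving out the 9 libraries with other-tissue markers, and each library for single-sex effects, was added after seeing the data. The members and lists were chosen with earlier results of these data known. Of the 10 genes outside the family with the highest correlation to its mean, 1 is not reported here.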

Additional observations from a re-analysis of the deposited data

Results flagged for a closer look

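For 21 members the effect of calorie restriction differed between 12 and 6 months of age by the test of the difference itself, and length of treatment changed with age. As the 12-month minus the 6-month log2 fold change, the lid genes stood at 1.17 (Psmd14), 0.75 (Psmd12), 0.67 (Psmd3), 0.64 (Psmd6), 0.63 (Psmd13), 0.58 (Psmd11) and 0.56 (Psmd7). The base scaffolds and the ubiquitin receptor stood at 0.98 (Psmd1), 0.74 (Psmd2) and 0.71 (Psmd4). The ATPases stood at 0.95 (Psmc5), 0.91 (Psmc4), 0.69 (Psmc1), 0.61 (Psmc2), 0.59 (Psmc6) and 0.44 (Psmc3). In the alpha ring the differences were 0.62 for Psma1 and 0.41 for Psma6, and the assembly chaperone Psmd5 stood at 0.35. The inducible catalytic subunits Psmb10 (-1.13) and Psmb8 (-0.92) differed in the other direction, and the call of Psmb8 was lost under 16 of 29 alternatives.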

How the results depend on the processing

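No member that passed changed sign under any alternative run. Calls held under all alternatives for 21 of 26 members in calorie restriction at 6 months, 23 of 27 in females and 6 of 12 in males, 17 of 21 in its difference between ages, 1 of 3 at 12 months, and 0 of 5 in Snell dwarfs, 0 of 7 under 17-alpha-estradiol and 0 of 4 under Protandim in females. The cause of these losses was not tested. With each library left out in turn, the members called numbered 22 to 28 for calorie restriction at 6 months, 23 to 28 in females, 6 to 13 in males (6 without restricted male replicate 1), 17 to 23 for the difference between ages, and 1 to 3 at 12 months (1 without control female 1, control male 3 or restricted male 2). They numbered 0 to 1 for restricted females at 12 months, 0 to 7 for 17-alpha-estradiol females, 0 to 6 for Protandim females, 0 to 3 for Protandim with both sexes (3 without Protandim female 1, 1 without control female 3), 0 to 4 for acarbose at 6 months (4 without acarbose female 1), 0 to 3 in acarbose females, 0 to 3 for methionine restriction (3 without control 1), 0 to 2 for GHRKO (2 without control 3) and 0 to 3 for Snell dwarfs. DESeq2 called 2 in acarbose females, 3 in restricted females of 12 months, 3 under methionine restriction and 2 under Protandim. Without the filter on low counts, 0 passed in 17-alpha-estradiol females, 1 in Protandim females, 1 under methionine restriction and 3 in Snell dwarfs. Without the libraries with other-tissue markers, 1 passed in restricted females of 12 months, 0 in Protandim females and 3 in Snell dwarfs.

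Replicate numbers did not pair the samples: in 0 of 19 groups did every same-numbered pair correlate above 0.1 (r from -0.248 to 0.227). With the replicate block, members called were 27 for calorie restriction at 6 months, 15 in its males, 22 for the difference between ages, 5 in 17-alpha-estradiol females, 3 in Snell dwarfs, 1 under Protandim and 1 in acarbose females. Among the exchange ratios, none of which passed, the difference changed sign for Psmb10 over Psmb7 under acarbose at 6 months (-0.014 without the libraries with other-tissue markers, -0.025 to 0.127 with 1 library left out), for Psmb8 over Psmb5 in GHRKO (0.104 without GHRKO replicate 3, the highest, and -0.52 at the lowest) and for Psmb9 over Psmb6 under rapamycin at 6 months (-0.021 to 0.483 with 1 library left out, and -0.011 without control male replicate 2).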
